A study of Homo sapiens with 8 samples.

Results

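The kinesins are the motor proteins that walk along microtubules. They were taken here as every probe of the array that was not a control and whose gene name was KIF followed by a digit, which gave 58 of 50599 probes. These probes stand for 38 of the 36619 gene names on the array. By their textbook roles, 11 of the genes are mitotic kinesins, 13 are transport kinesins and 14 are neither or mixed. KIF2A, which acts at spindle poles and in neurons, and KIF2B are relatives of the mitotic kinesin KIF2C and were placed among these 14. No alternative run moved them to the mitotic class. KIF4B, a near-identical copy of the mitotic kinesin KIF4A, had no probe under its own name, and the KIF4A probes may read it. A gene is given by its brightest probe, the one with the highest mean over all arrays.

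Kinesins share a motor domain that burns ATP to move along, slide or shorten microtubules. Mitotic kinesins build the spindle, move and align chromosomes and organise the midzone at which the daughter cells separate, and most of them are made mainly in the G2 and M phases of the cell cycle. Transport kinesins carry vesicles, mitochondria and receptors toward the plus ends of microtubules in cells that need not divide. Several of the transport kinesins are known mainly from neurons.

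The samples were cultures of DLD1, an established human colorectal cancer cell line in which many CpG islands are methylated. Cells of the control groups received a negative control siRNA (siCONT) and were given ethanol (mock) or trichostatin A (TSA) at 300 nM, which blocks the histone deacetylases, starting 48 h after transfection and lasting 24 h. Cells of the UHRF1 depletion groups received siUHRF1-1 or siUHRF1-2 and were given the same mock or TSA treatment at the same times. UHRF1 is the protein that guides the maintenance DNA methyltransferase DNMT1 to hemimethylated DNA, and transient siRNA lowers it without removing the gene. Each of the 4 groups had 2 arrays, and in the UHRF1 depletion groups the 2 arrays carried different siRNAs.

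Levels below are log2 intensities minus the 75th percentile of the array, and changes are differences of mean levels, treated minus control, on the log2 scale. A change was called at a Benjamini-Hochberg adjusted p (limma, two-sided, over all probes tested) under 0.05 and at least 2-fold. The siCONT arrays of an agent differed little more than repeated spots of 1 array do (1.21 times the spot noise under mock and 1.32 times under TSA, as squared differences, against 188 and 131 times for the siRNA pairs). They were therefore given no SD of their own. The fit holds all 8 arrays and enters the siCONT arrays of an agent as 2 replicates, so its SE and adjusted p can be too small. Where a second fit with the siCONT arrays of an agent averaged ends a call, its adjusted p or the count it leaves is given. With 2 arrays a group, the number of arrays limits the precision. UHRF1, the gene targeted, had a change of -1.83 ± 0.23 (SE) under mock (adjusted p = 0.0233, and 0.311 with the siCONT arrays averaged) and -2.87 ± 0.23 (SE) under TSA (adjusted p = 0.00462, and 0.0584 averaged). All 9 colon epithelial markers, EPCAM, KRT8 and CDX2 among them, were above background on all 8 arrays. Of the markers of other cell types, 2 of 4 leukocyte (CD79A and CD14), 0 of 5 fibroblast and 0 of 3 endothelial markers were. The log2 of the summed endothelial markers lay between -2.76 and -2.52 in siCONT mock and between 0.67 and 0.77 with both treatments (between -1.42 and -0.96 with UHRF1 depletion, between -0.08 and -0.05 with TSA), and that of the fibroblast markers lay between -3.26 and -2.89, between -0.71 and 0.36, between -3.6 and -2.88 and between -1.5 and -1.35 in the same order. VWF was at least 15-fold higher with both treatments (adjusted p = 0.000275) and COL1A1 at least 6.66-fold higher (adjusted p = 0.00175). They were the markers of other cell types called there, and PECAM1, COL1A2 and COL3A1 were above background on no array. Of the 9 colon epithelial markers, 1 was called higher with both treatments, beside 15.1% of all genes, and 1 lower, beside 10.9%. UHRF1 depletion called 2 of them higher, beside 2.29%, and TSA in siCONT cells 2 lower, beside 8.13%. Averaging the siCONT arrays left 0 higher and 1 lower with both, 0 with UHRF1 depletion and 1 with TSA. The part of these markers in the results was not tested. Mock arrays lay in row 1 of the slide and TSA arrays in row 2, so TSA and slide row cannot be told apart.

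Mitotic kinesins fell together when UHRF1 depletion was combined with TSA. Against siCONT mock, 10 of the 10 mitotic kinesins tested were called lower and none was called higher. The falls ran from 7.43% of the siCONT mock level left for KIF20A to 39% left for KIF15, with a median change of -2.08. Of all genes tested in this comparison, 10.9% were called lower, and their median change was -0.14. KIF18B, the other mitotic kinesin, was not above background on any of the 8 arrays. KIF2A, counted with the other kinesins, was lower too but was not called. That every mitotic kinesin tested was called thus depends on leaving KIF2A out of the class. With the siCONT arrays averaged to 1 sample, 8 of the 10 were called, beside 3.85% of all genes, and KIF4A (adjusted p = 0.0544) and KIF15 (adjusted p = 0.0681) were not.

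Fewer mitotic kinesins were called with either treatment alone. UHRF1 depletion under mock called 0 of the 10 mitotic kinesins in limma, beside 0.534% of all genes called lower, and 1 of the 10 (KIF23) had an unadjusted p under 0.05, beside 14.8% of all genes lower at that level. Their changes lay between -0.64 and 0.21 with a median of -0.19, against -0.10 for all genes tested. TSA in siCONT cells called 4 of the 10 lower, KIF2C, KIF20A, KIF22 and KIF14, beside 8.13% of all genes. The changes ran from -1.98 to 0.05 with a median of -0.68, against -0.13 for all genes. KIF14 lost the call under median scaling (adjusted p = 0.0568) and, at -0.96, under quantile normalization. Without any one of the 4 siCONT arrays 2 of the 10 were called. With the siCONT arrays averaged, 0 of the 10 were called, beside 0.0857% of all genes, the adjusted p being 0.159 for KIF2C, 0.226 for KIF22, 0.29 for KIF20A and 0.373 for KIF14.

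**Figure D1:**
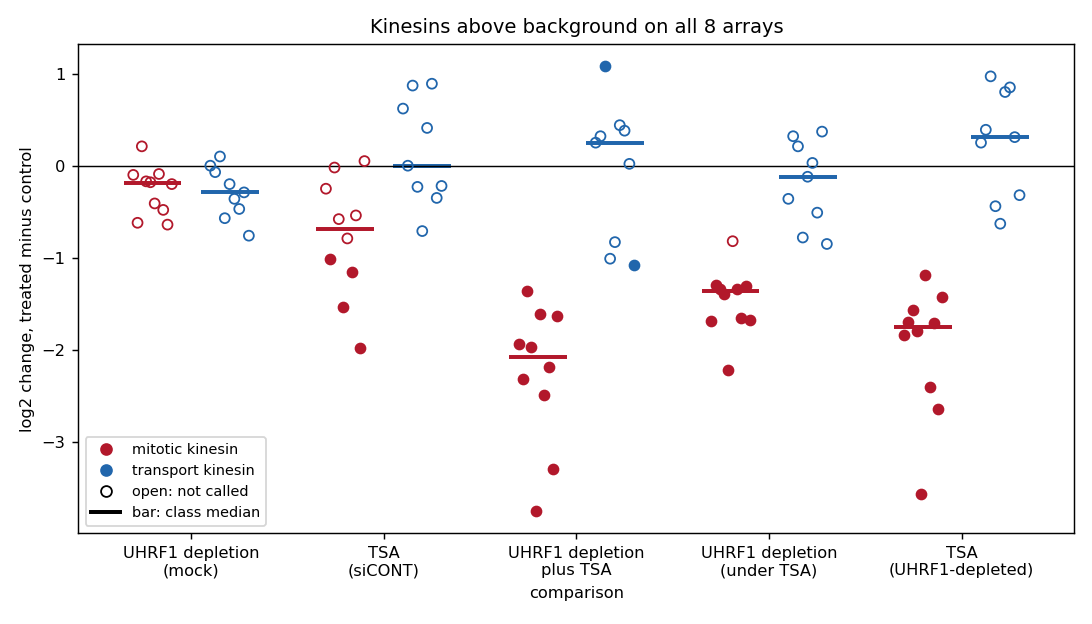
Log2 change (treated minus control, vertical axis) of each mitotic kinesin (red, 10 genes) and transport kinesin (blue, 9 genes) above background on all 8 arrays, in 5 comparisons; filled points were called, open points were not, and bars are class medians. The mitotic median lies at -0.19 for UHRF1 depletion, -0.68 for TSA and -2.08 for both, while the transport medians lie between -0.29 and 0.31 in all 5 comparisons.

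The motors that shape the spindle are KIF11 (Eg5), which slides antiparallel microtubules apart to separate the poles, and KIF15, which holds a bipolar spindle beside it. KIF11 read 2.73 and 2.75 on the siCONT mock arrays, 3.07 and 2.2 with siUHRF1-1 and siUHRF1-2 under mock, 2.47 and 2.5 on the siCONT TSA arrays, and 0.79 and 0.8 with siUHRF1-1 and siUHRF1-2 under TSA. KIF15 read 0.66 and 0.72 on the siCONT mock arrays, 1.17 and 0.63 with siUHRF1-1 and siUHRF1-2 under mock, 0.62 and 0.72 on the siCONT TSA arrays, and -0.64 and -0.69 with siUHRF1-1 and siUHRF1-2 under TSA. For both genes the UHRF1-depleted TSA arrays lay below the other 6 arrays, which did not separate by group for KIF15. KIF11 changed by -1.94 ± 0.28 (SE, adjusted p = 0.00349) with both treatments against siCONT mock, and by -0.25 with TSA alone. KIF15 changed by -1.36 ± 0.2 (adjusted p = 0.00377) with both and by -0.02 with TSA alone.

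KIF2C (MCAK) takes microtubules apart at their ends and helps to correct faulty kinetochore attachments, and KIF18A limits the swings of chromosomes at the metaphase plate. KIF2C read 5.37 and 5.44 on the siCONT mock arrays, 5.25 and 4.27 with siUHRF1-1 and siUHRF1-2 under mock, 3.41 and 3.45 on the siCONT TSA arrays, and 2.17 and 2.07 with siUHRF1-1 and siUHRF1-2 under TSA. KIF18A read -0.18 and -0.17 on the siCONT mock arrays, 0.07 and -0.77 with siUHRF1-1 and siUHRF1-2 under mock, -0.81 and -0.71 on the siCONT TSA arrays, and -2.24 and -2.06 with siUHRF1-1 and siUHRF1-2 under TSA. For KIF2C the siCONT mock arrays were highest, the siCONT TSA arrays were below all mock arrays, and the UHRF1-depleted TSA arrays were lowest, with no overlap between these. KIF2C kept 25.4% of its siCONT mock level with TSA alone and 10.2% with both (change -3.29 ± 0.31, adjusted p = 0.001). KIF18A changed by -1.97 ± 0.28 with both (adjusted p = 0.00324), and its siUHRF1-2 mock array overlapped the siCONT TSA arrays.

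KIF4A and KIF22 (Kid) bind chromosome arms and push them away from the poles, and KIF4A also acts in chromosome condensation and at the midzone. KIF4A read 1.68 and 1.65 on the siCONT mock arrays, 1.82 and 1.11 with siUHRF1-1 and siUHRF1-2 under mock, 1.75 and 1.67 on the siCONT TSA arrays, and 0.02 and 0.05 with siUHRF1-1 and siUHRF1-2 under TSA. KIF22 read 3.35 and 3.37 on the siCONT mock arrays, 3.4 and 3.14 with siUHRF1-1 and siUHRF1-2 under mock, 2.18 and 2.23 on the siCONT TSA arrays, and 0.72 and 1.01 with siUHRF1-1 and siUHRF1-2 under TSA. KIF4A stayed within the range of the mock arrays under TSA alone, while KIF22 was already lower there. With both treatments KIF4A changed by -1.63 ± 0.24 (adjusted p = 0.00376), and its second probe by -1.60. KIF22 changed by -1.15 ± 0.17 with TSA alone (adjusted p = 0.00584) and by -2.49 ± 0.17 with both (adjusted p = 0.000425), and its second probe changed by -2.41 with both.

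The motors of cytokinesis held the largest fall of the class. KIF20A (MKLP2) carries the chromosomal passenger complex to the midzone, KIF23 (MKLP1) is the motor of centralspindlin, KIF14 recruits citron kinase to the midbody, and KIF20B (MPP1) acts late in abscission. KIF20A read 1.54 and 1.52 on the siCONT mock arrays, 1.77 and 0.92 with siUHRF1-1 and siUHRF1-2 under mock, 0.01 and -0.01 on the siCONT TSA arrays, and -2.65 and -1.79 with siUHRF1-1 and siUHRF1-2 under TSA. KIF23 read 4.12 and 4.18 on the siCONT mock arrays, 3.86 and 3.49 with siUHRF1-1 and siUHRF1-2 under mock, 3.65 and 3.58 on the siCONT TSA arrays, and 1.82 and 2.12 with siUHRF1-1 and siUHRF1-2 under TSA. With both treatments KIF20A had a mean of -2.22 ± 0.61 (SD, n = 2 siRNAs) against 1.53 in siCONT mock, a 13.5-fold fall (change -3.75 ± 0.37, adjusted p = 0.00113), and the TSA arrays of siCONT lay between. KIF23 had a mean of 1.97 ± 0.21 (SD, n = 2 siRNAs) against 4.15 (change -2.19 ± 0.19, adjusted p = 0.000754), and under TSA alone it changed by -0.54, which was not called.

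KIF14 read 1.51 and 1.35 on the siCONT mock arrays, 1.18 and 0.44 with siUHRF1-1 and siUHRF1-2 under mock, 0.51 and 0.33 on the siCONT TSA arrays, and -0.7 and -1.07 with siUHRF1-1 and siUHRF1-2 under TSA. KIF20B read 1.21 and 1.18 on the siCONT mock arrays, 1.0 and 0.56 with siUHRF1-1 and siUHRF1-2 under mock, 0.38 and 0.44 on the siCONT TSA arrays, and -0.26 and -0.56 with siUHRF1-1 and siUHRF1-2 under TSA. Both were lowest on the UHRF1-depleted TSA arrays, which overlapped no other group. KIF14 changed by -2.32 ± 0.28 with both treatments (adjusted p = 0.00198), and KIF20B by -1.61 ± 0.2 (adjusted p = 0.00216). KIF20B was the exception when UHRF1 depletion was compared under TSA, with -0.82 ± 0.2 and an adjusted p of 0.051. The second probes of KIF20B and KIF23 changed by -1.70 and -2.03 with both treatments, so all 4 mitotic kinesins with a second tested probe had the same direction on both probes.

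**Figure D2:**
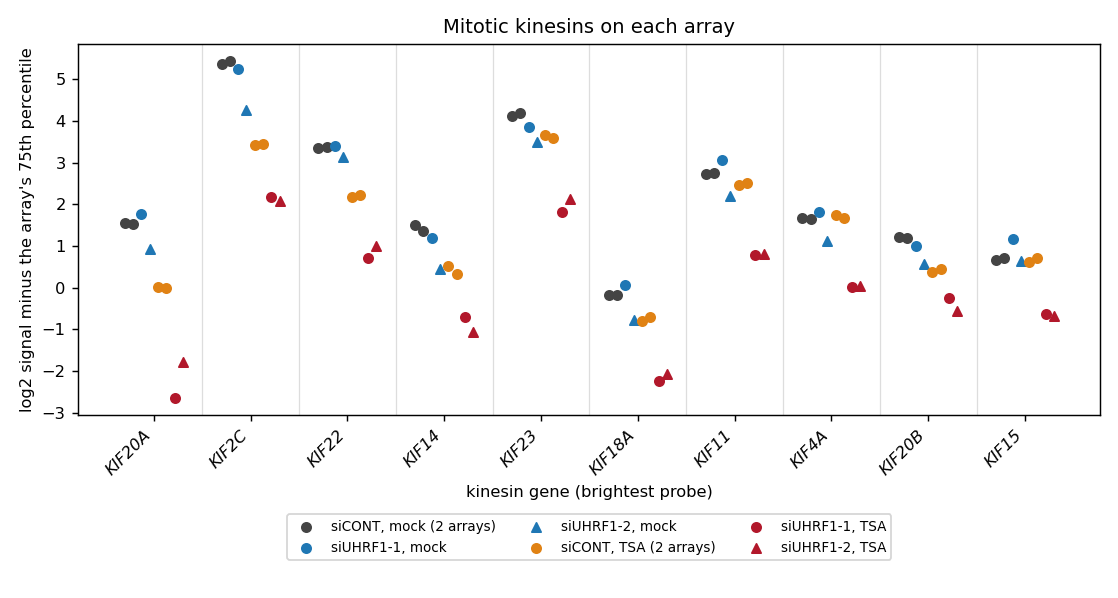
Level of each of the 10 mitotic kinesins above background (horizontal axis, ordered by their change with both treatments) on each of the 8 arrays, as log2 signal minus the 75th percentile of the array (vertical axis); colours mark the 4 groups, circles and triangles the siRNAs siUHRF1-1 and siUHRF1-2. In every gene the UHRF1-depleted TSA arrays (red) are the lowest, from -2.65 against 1.54 and 1.52 in siCONT mock for KIF20A to -0.69 against 0.66 and 0.72 for KIF15.

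Added to TSA, UHRF1 depletion lowered most of the class further. UHRF1 depletion under TSA called 9 of the 10 mitotic kinesins lower, beside 2.43% of all genes, with changes from -2.22 for KIF20A to -0.82 for KIF20B and a median of -1.37 against 0.01 for all genes tested. Normexp background correction called 6, beside 356 of 23844 probes lower, and no filter on dim probes 6, beside 432 of 50599. Quantile normalization called 8, beside 705 of 23844 probes lower, and median scaling 10, beside 1880 of 23844. With the siCONT arrays averaged 0 were called, beside 0.0222% of all genes, and adjusted p lay between 0.157 for KIF23 and 0.481 for KIF20B. Without either of the siCONT TSA arrays 0 were called, without either of the siCONT mock arrays 4, and without the siUHRF1-1 or siUHRF1-2 TSA array 2 and 4. TSA in UHRF1-depleted cells, a comparison in which no siCONT array enters the difference, called 10 of 10 lower, beside 8.93% of all genes, with a median of -1.76. The methods' t-test (equal variances) on those 4 arrays alone, unadjusted, called 6 of the 10. In limma all 10 were also called with the siCONT arrays averaged, beside 6.49% of all genes.

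The TSA change was larger in size in UHRF1-depleted than in siCONT cells for each of the 10 mitotic kinesins, and these changes share no array. KIF11 changed by -0.25 with TSA in siCONT cells and by -1.84 in UHRF1-depleted cells, KIF4A by 0.05 and -1.43, and KIF20A by -1.53 and -3.57. The difference itself, the interaction, ran from -2.03 for KIF20A to -0.41 for KIF20B with a median of -1.24, against 0.08 for all genes tested. It was called for 0 of 10 in limma, beside 0.74% of all genes called lower, while 7 of 10 had an unadjusted p under 0.05, all lower, beside 11% of all genes lower at that level. The smallest adjusted p were 0.0575 for KIF15 (-1.55 ± 0.28) and 0.0606 for KIF22 (-1.25 ± 0.24). Over the genes tested, the mitotic minus transport median of the interaction was -1.49 with all arrays. It was -1.78 without the siUHRF1-2 mock array and -1.43 without the siUHRF1-1 mock array.

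**Figure D3:**
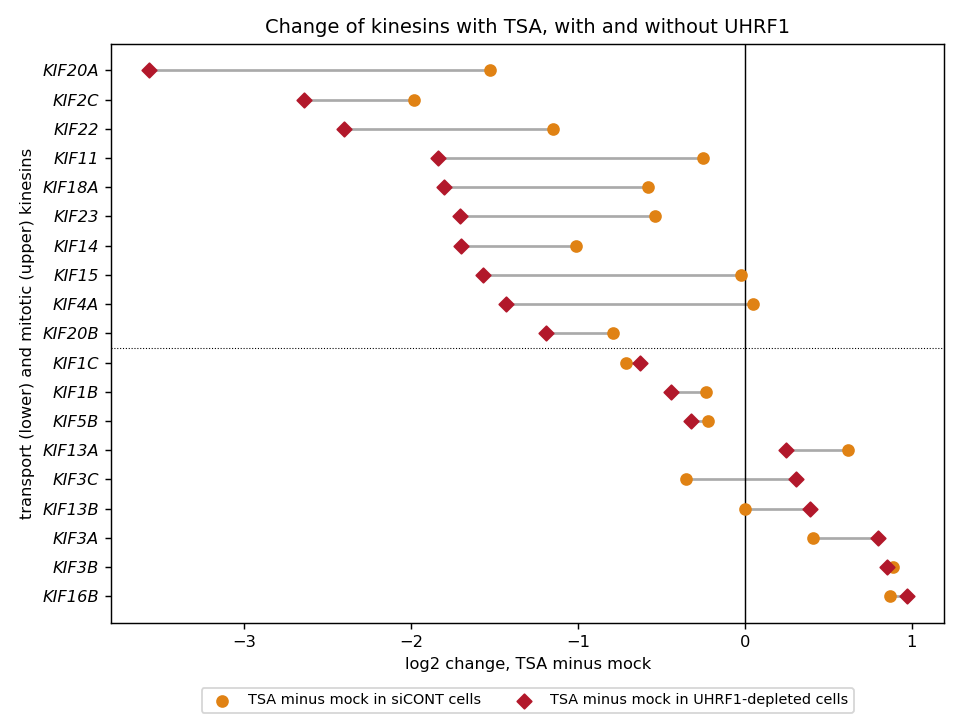
Log2 change with TSA against mock (horizontal axis) in siCONT cells (orange circles) and in UHRF1-depleted cells (red diamonds) for the 10 mitotic and 9 transport kinesins above background on all arrays (vertical axis), with a line joining the values of a gene. The red diamond lies left of the orange circle in all 10 mitotic kinesins, furthest for KIF20A (-3.57 against -1.53), and the transport kinesins show no common shift.

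The siRNAs differed under mock. All 10 mitotic kinesins were lower with siUHRF1-2 than with siUHRF1-1, with differences (siUHRF1-2 minus siUHRF1-1) from -0.98 for KIF2C to -0.27 for KIF22. Set against the siCONT mock mean, the changes lay between -0.29 and 0.48 (median 0.10) with siUHRF1-1 and between -1.14 and -0.06 (median -0.60) with siUHRF1-2. Under TSA the class medians of the siRNAs were -2.09 and -1.99, and 4 of the 10 genes were lower with siUHRF1-2. UHRF1 itself read 0.34 with siUHRF1-1 and -0.02 with siUHRF1-2 under mock. Its mean level was 1.99 in siCONT mock, 1.03 in siCONT TSA, 0.16 in UHRF1-depleted mock and -1.85 in UHRF1-depleted TSA cells. UHRF1 was thus also lower with TSA, so the TSA comparisons do not hold its level fixed. The part of this in the results was not tested. Each siRNA had 1 array under each agent, so the siRNA and the array cannot be told apart and no test was made.

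Genes that work with the mitotic kinesins were mostly lower too. CENPE, a kinetochore kinesin, and KIFC1, a minus-end kinesin that focuses spindle poles, are kinesins that the naming rule does not take in. CENPE changed by -2.42 ± 0.23 (adjusted p = 0.00106) and KIFC1 by -2.06 ± 0.16 (adjusted p = 0.000599) with both treatments, while KIFC2 and KIFC3 had 0.26 and 0.33 and were not called. Of 16 partners of the mitotic motors, 14 were called lower with both treatments, beside 10.9% of all genes, and 0 higher, with a median of -2.22. PLK1 (-2.98), a mitotic kinase that KIF20A binds, AURKA (-2.9), the spindle pole kinase, and HMMR (-2.87), a spindle assembly factor, had the largest changes. The exceptions were ECT2 (-1.3, adjusted p = 0.0587), the RhoA exchange factor of cytokinesis, and MAPRE1 (-0.29, adjusted p = 0.253), which tracks growing plus ends. With the siCONT arrays averaged 11 of the 16 were called lower, beside 3.85%, and CKAP5 (adjusted p = 0.137), ANLN (0.122) and NUSAP1 (0.0691) were not. TSA alone called 7 of the 16 lower, beside 8.13% (0 with the siCONT arrays averaged), and UHRF1 depletion alone called 0 in limma, with 4 lower at an unadjusted p under 0.05, beside 14.8%.

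Markers of cycling cells moved with these genes, and their part in the result was not tested. With both treatments 9 of the 10 were called lower, beside 10.9% of all genes, led by CCNB1 (-3.38), the cyclin of mitotic entry, TYMS (-3.35), the thymidylate synthase, and CCNA2 (-3.34), the cyclin of S phase and G2. TOP2A, the tenth, had -1.47 with an adjusted p of 0.054. Averaging the siCONT arrays left 8 called, and PCNA was not (adjusted p = 0.127). The log2 of their summed level lay between 7.94 and 7.97 in siCONT mock, between 7.49 and 7.92 with UHRF1 depletion, at 6.97 with TSA and between 5.54 and 5.61 with both. In RNA of whole cultures, fewer cells in mitosis and less of these RNAs in each cell cannot be told apart.

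Many G2 and M genes carry a CHR element, often a few turns of the helix downstream of a CCAAT box, through which MYB-MuvB and FOXM1 activate them and the DREAM complex represses them. Promoters from RefSeq (GRCh38.p14, 250 bases before to 50 after the start of the transcript) were found for all 11 mitotic kinesins and for 11 of the 13 transport kinesins. A CHR form stood on either strand in 9 of the 11 mitotic kinesins and in 1 of the 11 transport kinesins, beside 19.5% of 27305 genes with a promoter. The form TTTGAA stood in 8 mitotic kinesins and the form TTCGAA in 1, KIF22. A CCAAT box stood in 9 of 11 mitotic and 4 of 11 transport kinesins, beside 39.7% of genes. Both stood in 8 of 11 mitotic kinesins and in 1 of 11 transport kinesins, beside 7.85% of genes. This count sets no spacing or order. The nearest CCAAT box began 9 bases from the CHR match in KIF23 and 122 and 128 bases from the matches in KIF20B. It began 23 to 39 bases away in the other mitotic kinesins with both, and 81 in KIF5B. Of forms of the E2F site, TTGGCGC stood in 3 of 11 mitotic and 1 of 11 transport kinesins, beside 3.66% of genes. The form TTCCCGC stood in 0 and 2 of them, beside 7.82% of genes, and the form TTCGCGC in 0 of either class, beside 2.75%. All forms were searched on both strands, and matches that overlap were both kept (the E2F forms of KIF18A, read on opposite strands). The lists were made by role and not by sequence, and the shares are a description with no test.

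The CHR matches are shown because they are the letters that most of the mitotic promoters share and most of the transport promoters lack. Each line gives 30 bases of the strand of the gene with the match in capitals, and TTCAAA is the same element on the opposite strand:
KIF11: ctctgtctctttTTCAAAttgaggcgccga
KIF14: gcggggcgcccaTTCAAAttgcggccttct
KIF15: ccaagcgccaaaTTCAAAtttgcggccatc
KIF18A: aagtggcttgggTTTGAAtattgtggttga
KIF18B: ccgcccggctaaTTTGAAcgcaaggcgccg
KIF20B: tggccgccattgTTTGAAtttgaaaacggt
KIF22: ggcaccggggaaTTCGAAtgggagaggcgg
KIF23: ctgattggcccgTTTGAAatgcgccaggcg
KIF4A: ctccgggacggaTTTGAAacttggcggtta
KIF5B: agtgcagtaaaaTTTGAAtctgcgaccccg
The windows lie at chr10:92593090-92593119 (KIF11, plus strand), chr1:200620733-200620762 (KIF14, minus), chr3:44761747-44761776 (KIF15, plus), chr11:28108149-28108178 (KIF18A, minus), chr17:44947754-44947783 (KIF18B, minus), chr10:89701602-89701631 (KIF20B, plus), chr16:29790712-29790741 (KIF22, plus), chr15:69414282-69414311 (KIF23, plus), chrX:70290058-70290087 (KIF4A, plus) and chr10:32056548-32056577 (KIF5B, minus). In the mitotic kinesins the matches began between positions -55 and 31 from the annotated start, and KIF20B held 2 of them side by side. KIF22 has a second annotated start, from which its match begins at position -244. KIF5B, the transport kinesin with a match, had it at position -140. It was also the transport kinesin that was called lower, a call lost with the siCONT arrays averaged. Whether a match bears on a change was not tested. KIF20A and KIF2C, the mitotic kinesins with the largest falls, had no CHR match in this window, and KIF20A held 2 CCAAT boxes there. No match says only that the letters are not in these 300 bases.

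**Figure D4:**
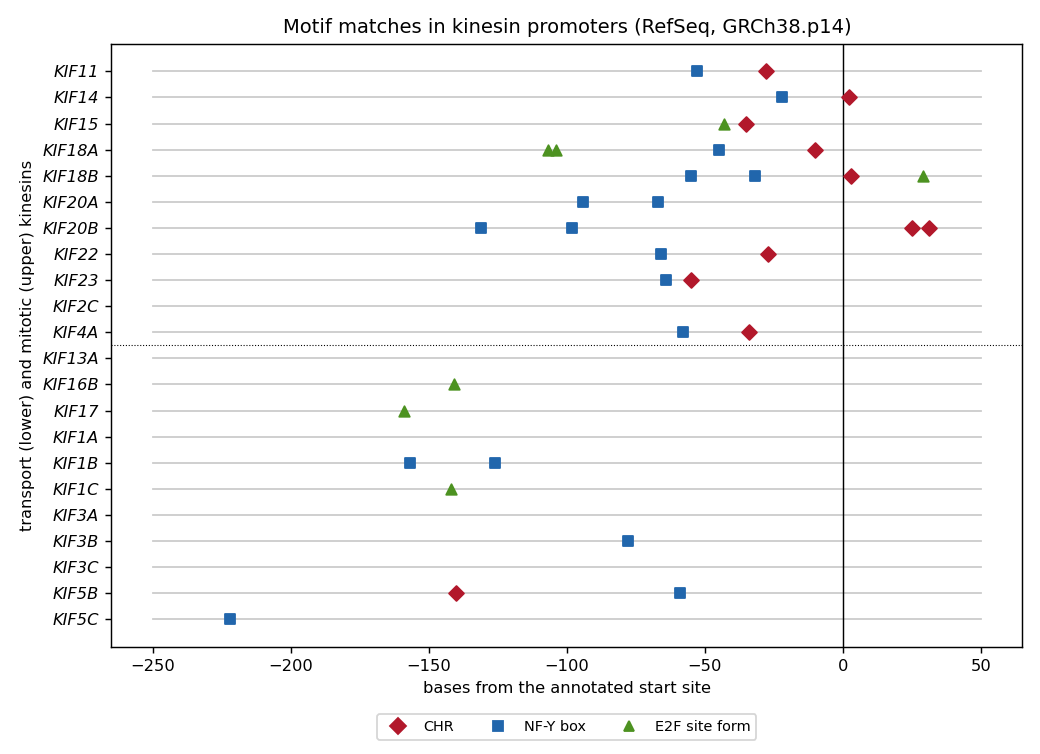
Matches to the CHR element (diamonds), the CCAAT box, bound by NF-Y (squares) and the E2F forms (triangles) by their distance from the annotated start site (horizontal axis, bases) in 1 promoter of each mitotic and transport kinesin with a sequence (vertical axis). CHR matches lie between -55 and 31 in 9 of the 11 mitotic kinesins, and the 1 match among the transport kinesins lies at -140.

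Of the known regulators of such promoters, 5 of 12 were called lower with both treatments, beside 10.9% of all genes, and 0 higher, with a median of -0.81. FOXM1, the forkhead activator of G2 and M genes, changed by -2.52 ± 0.2 (adjusted p = 0.000653), LIN9, a MuvB subunit, by -2.1 ± 0.17, and RBL1 (p107), a pocket protein, by -1.53 ± 0.14. E2F7 and MYBL2 were the other two, and neither was called with the siCONT arrays averaged (adjusted p = 0.059 and 0.0834). Neither UHRF1 depletion nor TSA alone called any of the 12 in limma, though 5 of 12 had an unadjusted p under 0.05 with each. With UHRF1 depletion 3 of these were lower, beside 14.8% of all genes, and 2 higher, beside 12.3%, and with TSA all 5 were lower, beside 28%.

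Transport kinesins showed no common direction. With both treatments 12 of the 13 were tested, 4 were called higher (KIF17, KIF1A, KIF5C and KIF16B), beside 15.1% of all genes called higher, and 1 was called lower (KIF5B), beside 10.9%. KIF17, KIF1A and KIF5C were above background mainly where they were high, so the class is better described by the 9 genes above background on all arrays, whose median change was 0.25 against -0.21 for the 15186 genes above background on all arrays. Over these 9 the median was -0.29 with UHRF1 depletion, 0.00 with TSA in siCONT cells, -0.12 with UHRF1 depletion under TSA and 0.31 with TSA in UHRF1-depleted cells. Over the genes above background on all arrays, the mitotic minus transport difference of medians was 0.10 with UHRF1 depletion, -0.68 with TSA and -2.33 with both. The first of these turned to -0.17 without the siUHRF1-1 mock array. The interaction was called for 0 of 12 in limma, beside 1.35% of all genes called higher, and 3 were higher at an unadjusted p under 0.05, beside 13.8%. With the siCONT arrays averaged, KIF17, KIF1A and KIF5C were called with both treatments, beside 9.36% of all genes called higher. Without the siUHRF1-2 TSA array 3 of the 12 were called with both treatments. The scaling of the arrays moved both class medians together. Scaled on the median instead of the 75th percentile, the 9 transport kinesins had a median of -0.15 with both treatments, which turns its sign, as does the -0.08 in place of 0.31 for TSA in UHRF1-depleted cells, and -0.48 in place of -0.12 for UHRF1 depletion under TSA. With both treatments so scaled, the 10 mitotic kinesins had a median of -2.48 and the 15186 genes one of -0.61. The called probes of the whole array then split into 2507 higher and 5503 lower in place of 3385 and 2578. The difference of class median levels on an array, mitotic minus transport, had a pooled SD of 0.387 between arrays of a group. This SD is one of levels, not of the changes above. It pools the siCONT pairs with the siRNA pairs, so it can understate the spread between siRNAs.

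The KIF5 genes encode the heavy chains of conventional kinesin, KIF5B in all tissues and KIF5A and KIF5C mainly in neurons. KIF5B read 4.99 and 5.01 on the siCONT mock arrays, 4.47 and 4.01 with siUHRF1-1 and siUHRF1-2 under mock, 4.79 and 4.76 on the siCONT TSA arrays, and 4.0 and 3.85 with siUHRF1-1 and siUHRF1-2 under TSA. KIF5C read -5.3 and -5.41 on the siCONT mock arrays, -5.76 and -5.48 with siUHRF1-1 and siUHRF1-2 under mock, -4.6 and -4.03 on the siCONT TSA arrays, and -2.79 and -2.67 with siUHRF1-1 and siUHRF1-2 under TSA. KIF5B was lower on all 4 UHRF1-depleted arrays than on all 4 siCONT arrays, under mock and under TSA. Depletion of UHRF1 gave KIF5B a change of -0.76 ± 0.19 (adjusted p = 0.0806), TSA one of -0.22 ± 0.19 and both one of -1.08 ± 0.19 (adjusted p = 0.00667, and 0.111 with the siCONT arrays averaged). Its second probe changed by -0.85 with both, and with quantile normalization KIF5B had -0.78, short of 2-fold. KIF5C was well above background on both UHRF1-depleted TSA arrays and on no other array. There it was at least 1.59-fold higher than in siCONT mock (adjusted p = 0.000772), at least 2.01-fold higher than in siCONT TSA (adjusted p = 0.0155, and 0.144 with the siCONT arrays averaged) and at least 1.83-fold higher than in UHRF1-depleted mock cells (adjusted p = 0.000759). These bounds set the bright mean against the lowest signal well above background on the dim arrays. The adjusted p beside a bound, here and below, is that of the fitted change, which uses the signals below background. Where the bound is under 2-fold, the 2-fold minimum was met only through those signals. KIF5A stayed below background on all 8 arrays.

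KIF17, which carries receptors in dendrites and cilia, and KIF1A, which carries synaptic vesicle precursors along axons, were likewise brightest with both treatments. KIF17 read -3.4 and -3.31 on the siCONT mock arrays, -3.27 and -3.71 with siUHRF1-1 and siUHRF1-2 under mock, -1.32 and -1.18 on the siCONT TSA arrays, and -0.11 and -0.5 with siUHRF1-1 and siUHRF1-2 under TSA. KIF1A read -5.64 and -5.7 on the siCONT mock arrays, -5.94 and -5.73 with siUHRF1-1 and siUHRF1-2 under mock, -6.07 and -5.96 on the siCONT TSA arrays, and -2.24 and -3.49 with siUHRF1-1 and siUHRF1-2 under TSA. KIF17 was not well above background in siCONT mock and on 1 of the 2 UHRF1-depleted mock arrays, and all 4 TSA arrays lay above all 4 mock arrays. It was at least 4.26-fold higher with TSA alone (adjusted p = 0.00229, and 0.0969 with the siCONT arrays averaged) and at least 8.23-fold higher with both treatments (adjusted p = 0.000475). KIF17 was the 1 transport kinesin called with TSA in siCONT cells, beside 10% of all genes called higher. KIF1A was well above background only on the UHRF1-depleted TSA arrays, where it was at least 1.45-fold higher than in siCONT mock (adjusted p = 0.00311) and at least 1.83-fold higher than in siCONT TSA (adjusted p = 0.012, and 0.0997 averaged). With normexp background correction, which adds an offset to the signal, KIF1A and KIF5C had 0.39 and 0.38 with both treatments and KIF17 had 0.58 with TSA alone, under 2-fold and so not called. KIF1A and KIF5C were thus the 2 transport kinesins called for UHRF1 depletion under TSA, beside 5.19% of all genes called higher. Without either siCONT TSA array at most 1 of them was called, and without either UHRF1-depleted TSA array 1. With KIF17 they were the 3 called for TSA in UHRF1-depleted cells, beside 11.9%, and all 3 were also called with the siCONT arrays averaged, beside 9.75%. KIF1A and KIF5C entered every test only through the UHRF1-depleted TSA arrays, where they were high. KIF17 entered the tests of TSA in UHRF1-depleted cells and of both treatments only through those arrays. A call lower was thus hardly possible for them there, and these calls are no support for a rise of the class.

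KIF16B moves early endosomes, and its probes disagreed. KIF16B read 0.53 and 0.49 on the siCONT mock arrays, 0.84 and 0.38 with siUHRF1-1 and siUHRF1-2 under mock, 1.38 and 1.37 on the siCONT TSA arrays, and 1.4 and 1.77 with siUHRF1-1 and siUHRF1-2 under TSA. Its 4 TSA arrays lay above its 4 mock arrays on the brightest probe, with a change of 1.08 ± 0.21 with both treatments (adjusted p = 0.00977, and 0.124 with the siCONT arrays averaged). Scaled on the array median, KIF16B had 0.67 with both treatments and was not called (adjusted p = 0.0762), and with normexp background correction it had 0.9, short of 2-fold. The other probe of KIF16B changed by -0.38 and was not called.

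The remaining transport kinesins were not called in any comparison by their brightest probe. KIF3A and KIF3B, the heterodimer of kinesin-2 that builds cilia, had 0.44 and 0.38 with both treatments, and KIF3C, their relative, had 0.02. KIF1C, which moves integrins and secretory vesicles, had -0.83, KIF13A, which carries mannose-6-phosphate receptors, had 0.25, and KIF13B had 0.32. KIF1B, which carries mitochondria and vesicles, had -1.01 ± 0.58, and its siRNA arrays stood apart under both agents (4.28 and 3.03 under mock, 3.96 and 2.47 under TSA). Its other tested probes had -0.16 and 0.23 with both treatments, and 2 of its 4 probes, neither the brightest, were called higher with TSA in siCONT cells. One changed by 1.07 and the other, dim in siCONT mock, was at least 2.1-fold higher, and neither was called with the siCONT arrays averaged (adjusted p = 0.323 and 0.229). The second probe of KIF3C was called higher with both treatments, at 1.06, but not with the siCONT arrays averaged (adjusted p = 0.119).

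**Figure D5:**
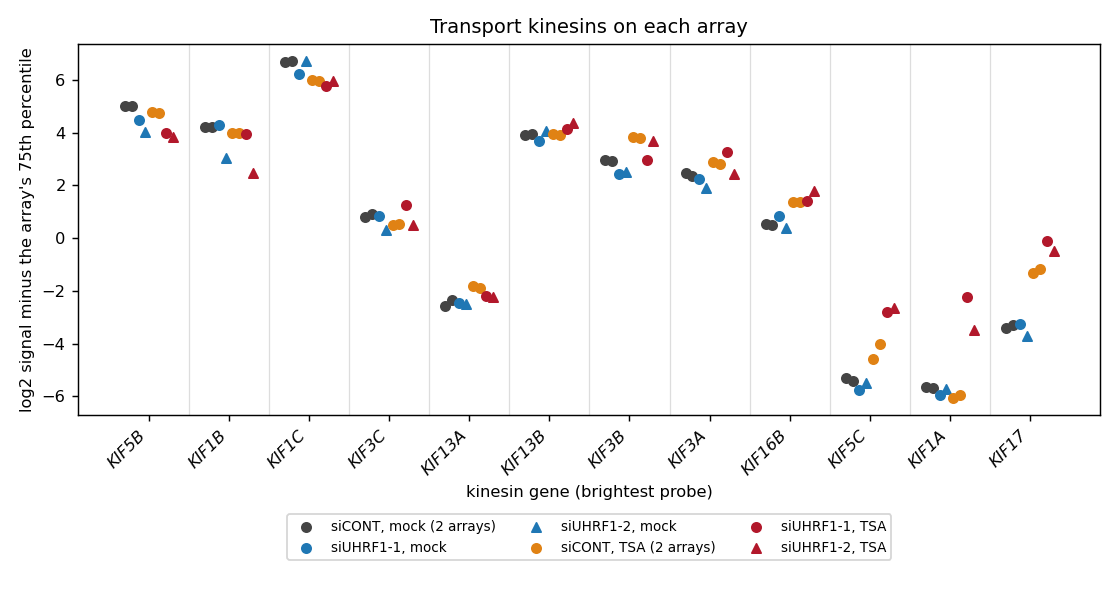
Level of each of the 12 transport kinesins tested (horizontal axis, ordered by their change with both treatments) on each of the 8 arrays, as log2 signal minus the 75th percentile of the array (vertical axis); colours mark the 4 groups, circles and triangles the siRNAs. KIF5C and KIF1A lie between -6.07 and -4.03 on the first 6 arrays, below background, and between -3.49 and -2.24 on the UHRF1-depleted TSA arrays, and the class shows no common shift.

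Adaptors of the transport kinesins and subunits of the opposing motor were mostly not called, and the shares called were near those of all genes. Of 17 adaptors and light chains of the transport kinesins, 2 were called higher, beside 15.1% of all genes, and 1 lower, beside 10.9%, with both treatments, with a median of 0.27. KLC3, a kinesin light chain, rose by 3.2 ± 0.14 (adjusted p = 0.00019), TRAK2, which links kinesin-1 to mitochondria, rose by 1.55 ± 0.27 (adjusted p = 0.0734 with the siCONT arrays averaged), and RHOT1 (Miro1), the receptor on those mitochondria, changed by -1.19 ± 0.28 (adjusted p = 0.0194, and 0.142 averaged). KLC3 read -0.10 and -0.23 on the siCONT mock arrays and 3.0 and 3.07 on the UHRF1-depleted TSA arrays. Of 16 subunits of dynein and dynactin, the minus-end motor and its cofactor, 1 was called lower with both treatments, beside 10.9% of all genes, DYNLL1 (-1.13 ± 0.14, adjusted p = 0.0776 with the siCONT arrays averaged), and the median was 0.05.

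Among the 14 other kinesins 9 were tested with both treatments, and 3 were called higher (KIF26A, KIF7 and KIF25), beside 15.1% of all genes, and 1 lower (KIF24), beside 10.9%. KIF26A belongs to a family that has lost ATPase activity and dampens growth factor signalling. KIF26A read -5.27 and -5.36 on the siCONT mock arrays, -3.1 and -2.89 with siUHRF1-1 and siUHRF1-2 under mock, -2.82 and -2.7 on the siCONT TSA arrays, and 0.02 and -0.5 with siUHRF1-1 and siUHRF1-2 under TSA. It was dim in siCONT mock, well above background in the 3 other groups and highest with both treatments, and these groups did not overlap with siCONT mock or, for the highest, with any other. It was at least 1.32-fold higher with UHRF1 depletion (adjusted p = 0.0136, and 0.17 with the siCONT arrays averaged), at least 1.55-fold with TSA (adjusted p = 0.00132, and 0.0661 averaged) and at least 8.92-fold with both (adjusted p = 0.000163, and 0.00512 averaged). With normexp background correction KIF26A was not called with UHRF1 depletion (0.16, adjusted p = 0.397) or with TSA (0.21, adjusted p = 0.203). It and KIF25 were the 2 kinesins called with UHRF1 depletion under mock, beside 2.29% of all genes called higher.

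KIF25 is a little studied minus-end kinesin of the centrosome. KIF25 read -2.18 and -3.27 on the siCONT mock arrays, -0.8 and -0.95 with siUHRF1-1 and siUHRF1-2 under mock, -2.63 and -2.76 on the siCONT TSA arrays, and -1.45 and -1.46 with siUHRF1-1 and siUHRF1-2 under TSA. Its UHRF1-depleted arrays all lay above its siCONT arrays, and the siCONT mock arrays themselves differed by more than those of any other kinesin called. Depletion of UHRF1 gave KIF25 a change of 1.85 ± 0.34 (adjusted p = 0.049, and 0.195 with the siCONT arrays averaged) and both treatments one of 1.27 ± 0.34 (adjusted p = 0.0293, and 0.0547 averaged). With UHRF1 depletion KIF25 was not called under median scaling (adjusted p = 0.0506). With both treatments it was not called under median scaling (adjusted p = 0.0689) or quantile normalization (adjusted p = 0.0606). With normexp background correction its change was 0.75 with UHRF1 depletion and 0.44 with both, under 2-fold.

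KIF7, a regulator of Hedgehog signalling at the tip of the cilium, and KIF24, which holds back the growth of cilia, moved apart. KIF7 read -3.55 and -3.14 on the siCONT mock arrays, -2.24 and -3.12 with siUHRF1-1 and siUHRF1-2 under mock, -3.26 and -3.07 on the siCONT TSA arrays, and -1.91 and -2.11 with siUHRF1-1 and siUHRF1-2 under TSA. KIF24 read 0.63 and 0.67 on the siCONT mock arrays, 0.33 and 0.52 with siUHRF1-1 and siUHRF1-2 under mock, -0.37 and -0.3 on the siCONT TSA arrays, and -1.04 and -1.1 with siUHRF1-1 and siUHRF1-2 under TSA. KIF7 was highest with both treatments (change 1.34 ± 0.32, adjusted p = 0.0187, and 0.114 with the siCONT arrays averaged). KIF7 was not called under median scaling (adjusted p = 0.088) or quantile normalization (adjusted p = 0.0829), and normexp background correction gave it 0.3. KIF24 fell as the mitotic kinesins did, by 1.72 ± 0.14 (SE) with both treatments (adjusted p = 0.000634). The KIF24 promoter held the CHR letters TTCGAA once and 3 CCAAT boxes, and whether these bear on the fall was not tested.

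KIF2A, a depolymerase of spindle poles and of neurons, is a relative of KIF2C. KIF2A read 2.23 and 2.19 on the siCONT mock arrays, 2.36 and 1.16 with siUHRF1-1 and siUHRF1-2 under mock, 1.93 and 1.92 on the siCONT TSA arrays, and 1.1 and 1.05 with siUHRF1-1 and siUHRF1-2 under TSA. It changed by -1.13 ± 0.37 with both treatments and was not called (adjusted p = 0.0515), and under mock its siUHRF1-2 array lay well below its siUHRF1-1 array. KIF21B read -0.91 and -1.4 on the siCONT mock arrays, -1.02 and -1.62 with siUHRF1-1 and siUHRF1-2 under mock, -0.21 and -0.16 on the siCONT TSA arrays, and -1.22 and -0.8 with siUHRF1-1 and siUHRF1-2 under TSA. KIF26B read -2.43 and -3.16 on the siCONT mock arrays, -3.14 and -3.0 with siUHRF1-1 and siUHRF1-2 under mock, -2.76 and -2.85 on the siCONT TSA arrays, and -2.79 and -2.31 with siUHRF1-1 and siUHRF1-2 under TSA. KIF21B and KIF26B had the smallest changes of the 9 other kinesins tested, 0.14 and 0.24 with both treatments. The groups of KIF26B overlapped, while the siCONT TSA arrays of KIF21B lay above its 6 other arrays (0.97 with TSA, adjusted p = 0.0441, short of 2-fold). The other tested members, KIF21A and KIF27, had -0.78 and 0.43 and were not called, and KIF2B, KIF6, KIF9, KIF12 and KIF19 were not above background on both arrays of any group.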

How the data were processed

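Total RNA of DLD1 cells was hybridised to 8 Agilent SurePrint G3 Human GE v2 arrays with 1 colour (Cy3). The deposited intensity values were made by the authors with Agilent Feature Extraction 10.7.3.1, which subtracted the local background and removed spatial trends within an array but did not scale between arrays, per the file headers. The submitters' processing notes give version 10.7. GeneSpring GX is named in the methods for the arrays, with no normalization, and t tests and ANOVA are named for continuous variables in general. Spots of a probe were averaged and control spots left out.

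Levels were log2 processed signals from which the 75th percentile of each array was subtracted. The model was fitted in R 4.3.3 with limma 3.58.1 on all 50599 probes, with group means as terms and 4 residual degrees of freedom. A probe was tested if 1 of the groups compared had it well above background on both arrays, and p-values were adjusted (Benjamini-Hochberg) over all probes tested. The share of probes well above background was 43.3% to 48% per array. Folds against a dim group are bounds set on the lowest signal well above background of each dim array. The adjusted p and the call beside such a bound are those of the fitted change, not of the bound. The replicate numbers of the UHRF1 groups name the siRNA and those of siCONT only a sample. P-values measure the spread between these arrays, since nothing states separate cultures. A check on simulated data used the SDs of these arrays, shuffled over all 50599 probes and the same in every group. In it 100 probes were changed by 2 and 100 by 3 on the log2 scale for UHRF1 depletion plus TSA. The fit called 60% and 85% of them. In the real arrays the siRNA pairs differed more than the siCONT pairs, so these shares are not the power there.

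Alternatives were normexp background correction, quantile and median scaling, the authors' deposited series values, other filters, the mean of the probes of a gene, averaged siCONT arrays, a replicate block, each array left out, the methods' t-test with equal variances, and KIF21A and KIF21B counted as transport kinesins. The members and gene lists were chosen with earlier results of these data known. Named with values on every array were the mitotic and transport kinesins called in any comparison and, of the other kinesins, those with the largest and smallest changes. Of each further list the called genes with the 3 largest changes with both treatments were named. ECT2, MAPRE1, TOP2A, E2F7, MYBL2, KIF25, KIF7 and KIF2A were added after their values were seen. Promoter sequences are from RefSeq (GRCh38.p14).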

Additional observations from a re-analysis of the deposited data

Results flagged for a closer look

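The interaction was called in limma for 3 genes of the further lists and for no kinesin. These were 1 of 10 cycling markers, 1 of 9 colon epithelial markers and 1 of 16 partners of the mitotic motors. All were lower, beside 0.74% of all genes called lower. The lack of a call does not show equal changes, since 7 of the 10 mitotic kinesins had an unadjusted p under 0.05 in limma, beside 11% of all genes lower. The interaction was -2.04 for TYMS, the thymidylate synthase, -1.5 for LGALS4, a colon galectin, and -1.19 for BIRC5 (survivin), the partner of the mitotic kinase AURKB. With the siCONT arrays averaged, 0 of these genes were called for the interaction.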

How the results depend on the processing

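No call reversed under any alternative run. For mitotic kinesins with both treatments, normexp background and averaging the siCONT arrays each called 8, and the other alternatives called 10. Averaging the siCONT arrays called 0 mitotic kinesins for TSA in siCONT cells and 0 for UHRF1 depletion under TSA, and 0, 0 and 3 transport kinesins for TSA in siCONT cells, UHRF1 depletion under TSA and both treatments. Normexp background called 0 transport kinesins for TSA in siCONT cells, 0 for UHRF1 depletion under TSA, 1 for TSA in UHRF1-depleted cells and 2 with both treatments, called 6 mitotic interactions, and gave a mitotic minus transport median of -1.82 for TSA in UHRF1-depleted cells. Keeping only probes above background on all arrays called 0 transport kinesins for TSA in siCONT cells, 0 for UHRF1 depletion under TSA, 0 for TSA in UHRF1-depleted cells and 2 with both, since fewer genes were tested. With no filter 2 mitotic kinesins were called lower and 2 transport kinesins higher for TSA in siCONT cells. Of 50599 probes, 2007 were lower and 2208 higher in that run. Quantile normalization called 2 transport kinesins for TSA in siCONT cells and 3 mitotic interactions. Median scaling called 1 transport interaction, and the mean of the probes of a gene 3 transport kinesins with both treatments. The spread estimated on tested probes only, chosen after seeing the data, called 3 mitotic and 2 transport interactions. Interaction calls grew over the whole array too. Of 24589 probes, 170 were called lower in the main fit, 470 with normexp background, 518 with quantile normalization and 508 with the tested-probe spread. Those called higher were 301 in the main fit, 245 with median scaling and 695 with the tested-probe spread. The methods' t-test, unadjusted, called 6 mitotic kinesins lower for TSA in UHRF1-depleted cells, beside 1415 of 23912 probes. After Benjamini-Hochberg adjustment it called 0 probes of the whole array there, and 2714 with both treatments. The causes of these differences were not tested. With each array left out in turn, the calls of mitotic kinesins ranged from 0 to 1 for UHRF1 depletion, 2 to 4 for TSA in siCONT cells, 10 to 10 for both, 0 to 9 for UHRF1 depletion under TSA, 9 to 10 for TSA in UHRF1-depleted cells and 0 to 8 for the interaction. Those of transport kinesins ranged from 0 to 0, 1 to 1, 3 to 5, 0 to 2, 3 to 5 and 0 to 1 in the same order, and the mitotic minus transport median for TSA in UHRF1-depleted cells from -2.74 to -2.08. A lone array left in a group was assumed to vary like the other groups, so calls gained without an array are no support for a change. With the replicate number as a block, 7 mitotic kinesins were called for UHRF1 depletion under TSA in place of 9 (KIF2C and KIF18A were not), KIF25 was not called for UHRF1 depletion (adjusted p = 0.068), no other named kinesin lost a call, and 10 mitotic kinesins were called with both treatments as before. The numbers pair only the UHRF1-depleted groups, which share the siRNA. The deviations of same-numbered arrays correlated at 0.34 between these groups and between -0.06 and 0.07 otherwise. Neither the main fit nor the methods' t-test uses this pairing. With 2 arrays a group and signal near background, changes of KIF1A, KIF5C and KIF17 are bounds.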
